A study of Mus musculus with 9 samples.

Results

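In the mouse nucleus accumbens, 696 of 14051 tested genes had a transcript level that set the cocaine library apart from both a saline library and a cocaine withdrawal library. They were found by one rule. The RPKM, the read number per length of the gene model and per total of the lane, of each of the 3 cocaine lanes lay above, or each lay below, the RPKM of all 6 saline and withdrawal lanes. Genes were tested if their mean was at least 1 RPKM over the 9 lanes, which 14051 of the 21423 genes in the table met. The cocaine lanes were above all others for 317 genes (2.26% of those tested) and below all others for 379 (2.70%). The values that chose these genes are described here without a test, and the place of the cocaine lanes is not itself a finding.

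Adult male C57BL/6 mice, 2 to 5 months old, were injected intraperitoneally each day for 7 days with saline at 10 ml/kg or with cocaine at 10 or 20 mg/kg. The labels do not tie a cocaine dose to a sample. Saline and cocaine tissue was taken 24 h after the last injection. Withdrawal mice had received cocaine as well, and their tissue was taken 8 days after the last dose. RNA from accumbens punches of 8 mice was pooled in equal amounts for each group. Each pool gave 1 poly(A) library, run in 3 lanes with paired ends of 37 cycles. The lanes are technical runs, so n is 1 library for each group, and the treatment cannot be told apart from the pool, the punches or the library. Standard errors (SE) below come from the 3 lanes of each library and cover sequencing only.

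The nucleus accumbens is the ventral part of the striatum. Most of its neurons are GABAergic medium spiny neurons, which carry dopamine D1 receptors with the peptides dynorphin and substance P, or dopamine D2 and adenosine receptors of the Adora2a type with enkephalin. Cocaine blocks the dopamine transporter and so raises dopamine outside the cells. D1 receptors raise cAMP and D2 receptors lower it, and DARPP-32, the product of Ppp1r1b, carries the cAMP signal to protein phosphatase 1.

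The 3 libraries had the marker transcripts of the labelled tissue. The summed RPKM of 30 genes of dopamine and cAMP signalling in medium spiny neurons was 3020 to 3070 in the saline lanes, 2550 to 2600 in the cocaine lanes and 2890 to 2930 in the withdrawal lanes. Lane totals ran from 5546362 to 12026754, so that 1 read in a gene model of 2 kb was worth 0.0416 to 0.0901 RPKM. The saline library stood furthest apart under the same rule. Its 3 lanes lay beyond the 6 lanes of the other libraries for 4368 genes (31.1%), against 1419 (10.1%) for the withdrawal library, 665 above (4.73%) and 754 below (5.37%), and 696 (4.95%) for the cocaine library. The saline library was above the others for 2479 genes (17.6%) and below them for 1889 (13.4%). Markers of cortical projection neurons were mixed. Of 17 tested, 4 had cocaine lanes above saline and 4 below, and the median of cocaine minus saline was 0.04 log2 units, while the summed levels were 304 to 307 RPKM in saline, 248 to 280 in cocaine and 239 to 265 in withdrawal. One of them, Slc17a7, a vesicular glutamate transporter, had 19.4, 18.2 and 17.4 RPKM in saline, 5.83, 5.01 and 5.76 in cocaine and 3.29, 4.34 and 4.26 in withdrawal. The part of this difference in the results below was not tested.

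Most of the 696 genes differed by a small amount. Each library is summarised as the mean of log2(RPKM + 0.5) over its lanes, a scale that understates the differences of weakly expressed genes, and the nearer library is whichever of saline and withdrawal lay closer to cocaine. The median fold from the nearer library was 1.13 among the 317 higher genes and 1.16 among the 379 lower genes. The difference was under 25% for 279 of the higher genes (88.0%) and for 290 of the lower ones (76.5%). A difference of at least 1.5 times was found for 5 higher genes (0.0356% of those tested) and 19 lower genes (0.135%). At the edge of the rule, Gdap1, a protein of the mitochondrial outer membrane, was the closest higher gene inside, with cocaine lanes from 17.9 to 18.9 RPKM against 16.0 to 17.9 in the others. Lman1, a cargo receptor for secreted proteins, lay just outside, with 8.49 to 9.10 against 5.48 to 8.49. On the lower side, Polr2f, an RNA polymerase subunit, was just inside with 29.7 to 35.2 against 35.2 to 49.9, and Atp6v0c, a proton pump subunit, just outside with 356 to 371 against 371 to 447. The 4 genes show no gap at the printed precision between the cocaine lanes and the nearest other lane.

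**Figure D1:**
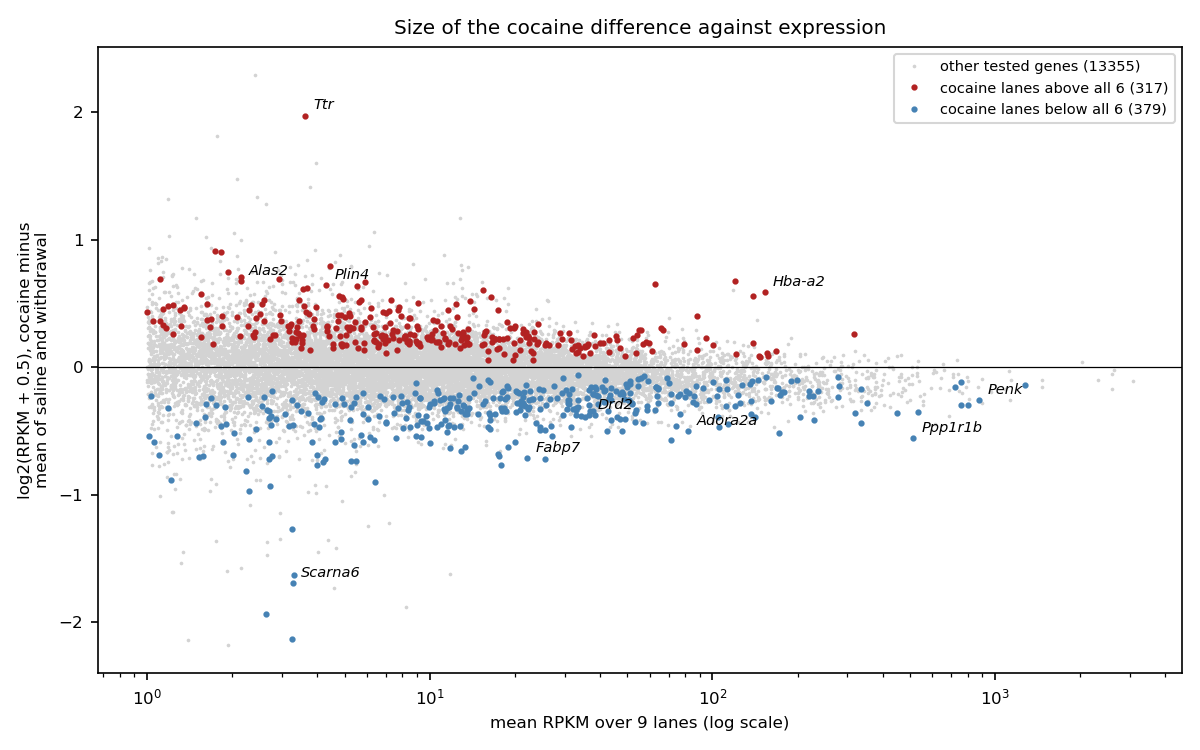
Difference of the cocaine library from the mean of the saline and withdrawal libraries on log2(RPKM + 0.5), plotted for 14051 tested genes against their mean RPKM over 9 lanes on a log axis. Red points are the 317 genes with cocaine lanes above all 6 others, blue points the 379 below and grey points the remaining tested genes. Most coloured points lie close to 0, and Ttr stands at the top of the red ones.

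Genes of dopamine and cAMP signalling in medium spiny neurons that met the rule were mostly on the lower side. Of 30 listed genes, all tested, 10 had cocaine lanes below all 6 others (33.3%, against 2.70% of all tested genes), 1 had them above and 19 neither. The median difference of the list from the mean of the other libraries was -0.11 log2 units, against -0.01 over all tested genes. In the separate comparisons, which share the cocaine library, the cocaine lanes lay below the 3 saline lanes for 16 of the 30 genes (53.3%, against 23.9% of all tested genes) and below the 3 withdrawal lanes for 21 (70.0%, against 8.66%). No member of this list reached 1.5 times. In bulk tissue, fewer cells of a type and less RNA per cell cannot be told apart.

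Receptors on D2-type medium spiny neurons were among the 10. Adora2a, an adenosine receptor coupled to cAMP production, had 86.5, 93.1 and 94.6 RPKM in the saline lanes, 64.1, 64.0 and 64.4 in the cocaine lanes and 93.3, 89.5 and 89.2 in the withdrawal lanes. The saline and withdrawal lanes overlapped, and the cocaine library differed from them by -0.51 (lane SE 0.04) and -0.49 (lane SE 0.02) log2 units, or 0.709 times the nearer library. Drd2, the dopamine D2 receptor, had 37.3, 38.7 and 39.1 RPKM in saline, 25.8, 32.4 and 33.5 in cocaine and 36.3, 46.1 and 40.1 in withdrawal. Its cocaine lanes spread more widely than those of Adora2a, with cocaine lane 1 lowest, and the saline and withdrawal lanes again overlapped (0.795 times the nearer library). Gpr6, a Gs-coupled orphan receptor of the same neurons, had 36.3, 33.1 and 39.5 RPKM in saline, 30.5, 26.5 and 30.6 in cocaine and 37.6, 39.7 and 45.0 in withdrawal. Drd1a, the D1 receptor, was not among the 696 genes, since its cocaine lanes (40.6, 38.6 and 39.3 RPKM) overlapped the saline lanes (38.9, 43.1 and 47.6), while all withdrawal lanes (42.2, 42.2 and 43.2) were higher. Whether Drd1a and Drd2 differ in response was not tested.

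The signalling genes downstream of these receptors included the most abundant members of the list. Ppp1r1b had 643, 673 and 650 RPKM in saline, 404, 374 and 389 in cocaine and 488, 497 and 509 in withdrawal. The 3 libraries did not overlap, and withdrawal lay between the other 2, with cocaine 0.781 times withdrawal. Pde1b, a calmodulin-dependent phosphodiesterase, had 167, 174 and 172 RPKM in saline, 141, 143 and 144 in cocaine and 168, 175 and 172 in withdrawal, so that saline and withdrawal overlapped and every cocaine lane was lower. Rgs9, which speeds the shut-off of G proteins downstream of D2 receptors, had 22.1, 20.9 and 21.5 RPKM in saline, 19.2, 18.8 and 18.5 in cocaine and 26.6, 26.4 and 25.7 in withdrawal, with withdrawal as the highest library. Rasd2, a small GTPase of the striatum, had 95.1, 91.7 and 96.0 RPKM in saline, 78.3, 73.6 and 79.8 in cocaine and 84.3, 83.8 and 90.5 in withdrawal. The differences of Gng7, a G protein gamma subunit, of Arpp21, a cAMP-regulated phosphoprotein, and of Ptpn5, the striatum-enriched phosphatase STEP, were smaller, at 0.952, 0.942 and 0.969 times the nearer library. Prkacb, a catalytic subunit of protein kinase A, was the 1 higher gene, with 149, 137 and 141 RPKM in saline, 153, 149 and 152 in cocaine and 146, 144 and 139 in withdrawal. With all lanes scaled to the 75th percentile, 8 of the 10 lower genes kept their place. Gng7 and Ptpn5 were lost, and Ptpn5 turned to 0.026 log2 units from the nearer library. After centring within bins of gene length, 9 genes of the list were below, 8 of them from the 10.

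Transcription factors and other genes known for high striatal expression were in part placed alike. Of 15 tested transcription factors of medium spiny neurons, 2 were lower (13.3%, against 2.70% of all tested genes) and none higher (against 2.26%). The median of the list was -0.04. Rxrg, a retinoid X receptor, had 25.5, 31.8 and 29.5 RPKM in saline, 20.3, 18.7 and 20.8 in cocaine and 27.9, 26.3 and 28.5 in withdrawal, with overlapping saline and withdrawal lanes. Rarb, its retinoic acid receptor partner, had 16.7, 16.7 and 17.7 RPKM in saline, 13.4, 14.9 and 14.4 in cocaine and 20.8, 20.0 and 19.1 in withdrawal, where withdrawal was highest. Scn4b, a sodium channel beta subunit, had 56.5, 60.5 and 57.6 RPKM in saline, 47.3, 45.9 and 43.4 in cocaine and 57.9, 55.8 and 56.3 in withdrawal. Crym, a thyroid hormone binding protein, is outside the lists and is named for its values. It had 119, 118 and 118 RPKM in saline, 85.4, 88.5 and 86.4 in cocaine and 111, 113 and 104 in withdrawal. The saline and withdrawal lanes overlapped for Scn4b, and for Crym withdrawal lay just below saline.

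**Figure D2:**
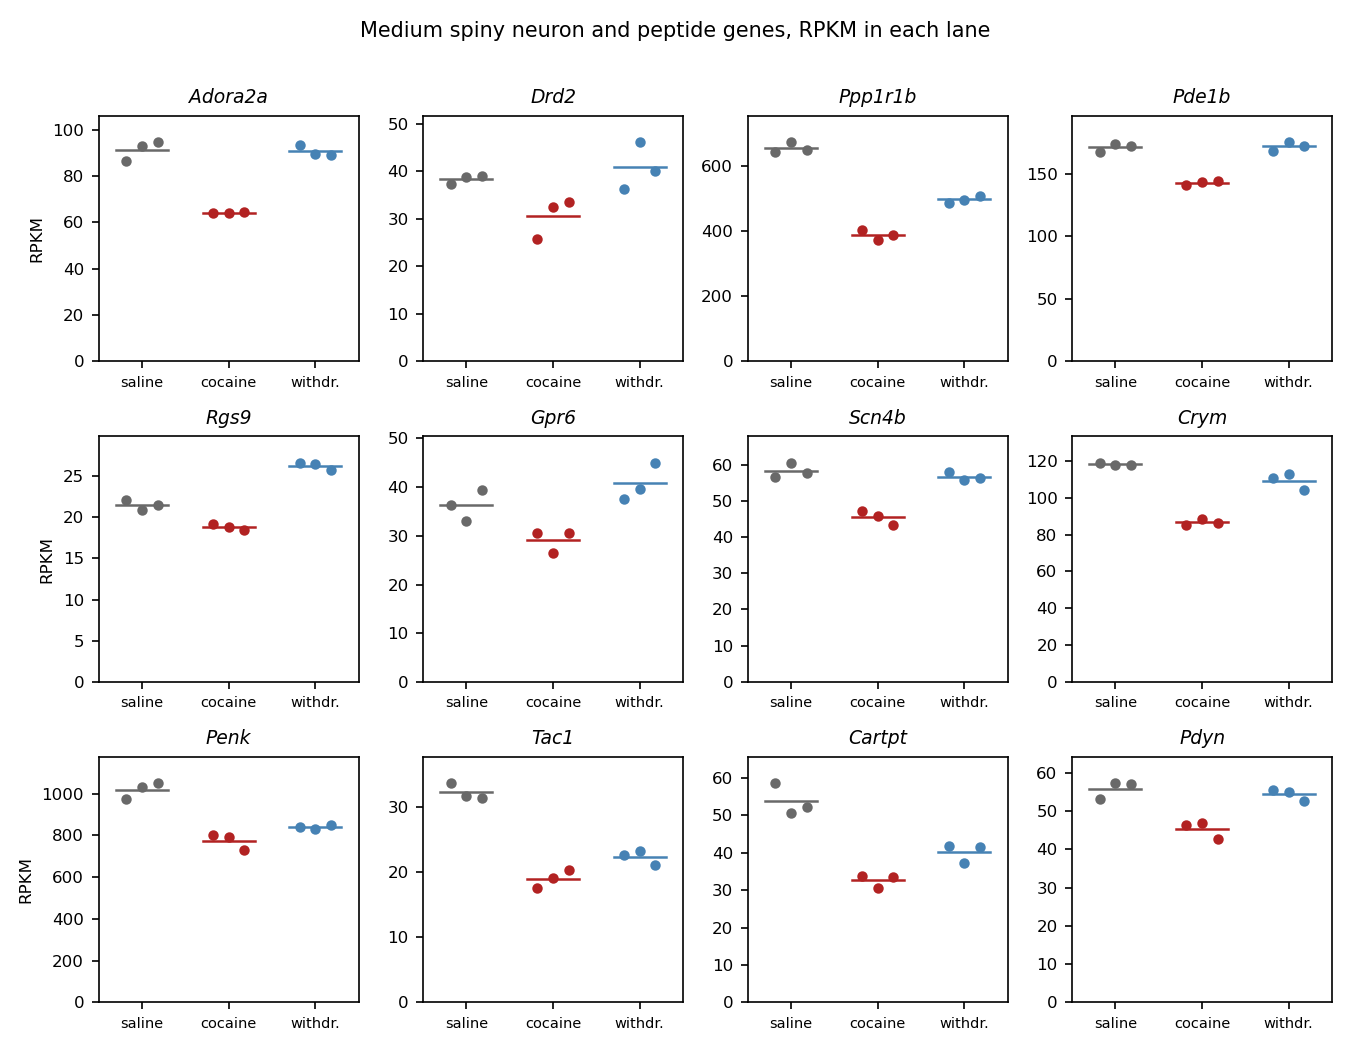
RPKM of 12 genes with lower cocaine lanes, with 1 point for each lane, a line at the mean of the 3 lanes of a library and a vertical axis from 0. In each panel all 3 cocaine points lie below the 6 others, and for Adora2a, Drd2, Pde1b, Gpr6, Scn4b and Pdyn the saline and withdrawal points overlap.

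Some neuropeptide precursors were on the lower side, among them the main peptides of medium spiny neurons. Of 29 tested genes listed as precursors, 6 had cocaine lanes below all others (20.7%, against 2.70% of all tested genes), 1 above (3.45%, against 2.26%) and 22 neither. The median of the list was -0.12. As a list the precursors were lower than saline and not than withdrawal, with medians of -0.38 log2 units for cocaine minus saline and 0.07 for cocaine minus withdrawal. Their summed level was 2630 to 2700 RPKM in saline, 2050 to 2150 in cocaine and 2070 to 2130 in withdrawal. Against saline alone 19 of the 29 had lower cocaine lanes (65.5%, against 23.9% of all tested genes) and 1 had higher ones. Against withdrawal alone 6 were lower (20.7%, against 8.66%) and 4 higher (13.8%, against 9.42%). Penk, the enkephalin precursor of D2-type neurons, had 975, 1030 and 1050 RPKM in saline, 800, 795 and 729 in cocaine and 839, 832 and 848 in withdrawal, and withdrawal lay between the others. Pdyn, the dynorphin precursor of D1-type neurons, had 53.1, 57.3 and 57.0 RPKM in saline, 46.5, 47.0 and 42.7 in cocaine and 55.5, 55.0 and 52.8 in withdrawal, so that saline and withdrawal overlapped. Tac1, the substance P precursor, had 33.7, 31.8 and 31.4 RPKM in saline, 17.6, 19.2 and 20.3 in cocaine and 22.6, 23.3 and 21.1 in withdrawal. For Tac1 the cocaine library was nearer to withdrawal (-0.23 log2 units) than to saline (-0.75).

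Cartpt, the precursor of cocaine- and amphetamine-regulated transcript peptides, had 58.5, 50.6 and 52.3 RPKM in saline, 33.7, 30.6 and 33.6 in cocaine and 41.8, 37.2 and 41.5 in withdrawal, with no overlap between the 3 libraries. Gal, the galanin precursor, had 17.4, 20.2 and 17.8 RPKM in saline, 15.1, 13.4 and 12.0 in cocaine and 16.2, 15.4 and 17.9 in withdrawal. Pomc, the precursor of melanocortins and beta-endorphin, was weakly expressed, with 2.91, 2.20 and 5.98 RPKM in saline, 1.99, 0.715 and 1.86 in cocaine and 3.16, 2.64 and 3.01 in withdrawal. Its difference of 0.561 times the nearer library fell to -0.50 log2 units, under the limit of 1.5 times, without cocaine lane 2. The 1 higher gene of the precursor list, Nxph1, which encodes a secreted neuronal glycoprotein, had 10.4, 9.08 and 10.4 RPKM in saline, 11.0, 10.8 and 10.7 in cocaine and 7.91, 9.30 and 8.68 in withdrawal. None of 24 tested peptide and opioid receptors had cocaine lanes beyond all others in either direction, beside 4.95% of all tested genes, so little can be read from so short a list.

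Genes with a cAMP response element near their start are a known group of activity-regulated genes, so the promoters of the lower genes were searched for the full element TGACGTCA, which reads the same on both strands. RefSeq promoter windows of 300 bases (250 before to 50 after a start, build GRCm38.p6) were matched by symbol for 287 of the 379 lower genes, 247 of the 317 higher genes and 10642 of all tested genes. The element was in a window of 12 lower genes (4.18%), 6 higher genes (2.43%) and 378 of all tested genes (3.55%). Counted by window, it was in 3.05% of the windows of lower genes, 2.4% of higher genes and 2.94% of all tested genes. Over all 32851 promoter windows, which include untested genes, it was in 1.79%. The shares of lower and higher genes are near that of all tested genes. The 5-letter core TGACG, on either strand, was in 36.2% of lower, 34.8% of higher and 35.2% of all tested genes, and the AP-1 motif TGANTCA in 5.92%, 6.07% and 5.81%. The first includes every full element. Among the 12 lower genes were Cartpt, Gpr6 and Plk2, an activity-induced polo-like kinase described next. Their windows are shown because they place the element in 3 lower genes of neuronal signalling. The lines give the 150 bases before the start, 5′ to 3′ on the gene's strand, with the element in capitals, for Cartpt at chr13:99900684-99900833 (minus strand), Gpr6 at chr10:41072291-41072440 (minus strand) and Plk2 at chr13:110394894-110395043 (plus strand).
Cartpt: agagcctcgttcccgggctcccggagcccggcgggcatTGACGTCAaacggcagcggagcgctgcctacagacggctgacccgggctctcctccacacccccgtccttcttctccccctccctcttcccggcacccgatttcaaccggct
Gpr6: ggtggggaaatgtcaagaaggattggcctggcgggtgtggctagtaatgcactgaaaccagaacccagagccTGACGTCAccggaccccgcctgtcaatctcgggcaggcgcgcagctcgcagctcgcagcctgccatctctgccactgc
Plk2: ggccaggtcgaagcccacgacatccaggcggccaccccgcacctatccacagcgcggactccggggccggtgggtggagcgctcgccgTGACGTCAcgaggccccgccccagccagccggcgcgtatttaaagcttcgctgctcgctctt
The element began 112, 78 and 62 bases before the start of Cartpt, Gpr6 and Plk2. A match is a description of these letters and not of binding.

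Immediate-early and activity-regulated genes, which neurons transcribe within minutes to hours of activity, gave 3 members. Of 44 tested, 2 were lower (4.55%, against 2.70% of all tested genes) and 1 higher (2.27%, against 2.26%), shares near those of all tested genes, and the median of the list was -0.09. Compared with saline only, 18 had lower cocaine lanes (40.9%, against 23.9% of all tested genes) and 2 higher ones (4.55%, against 18.3%). Compared with withdrawal only, 4 were lower (9.09%, against 8.66%) and 5 higher (11.4%, against 9.42%). The list medians were -0.19 log2 units from saline and -0.01 from withdrawal. Arc, a regulator of AMPA receptor endocytosis, had 15.4, 16.1 and 15.4 RPKM in saline, 8.74, 9.18 and 10.6 in cocaine and 12.5, 10.8 and 10.6 in withdrawal. Its cocaine lane 3 and withdrawal lane 3 were equal at the printed precision. Plk2 had 39.3, 44.3 and 39.0 RPKM in saline, 38.3, 34.8 and 34.2 in cocaine and 41.5, 38.6 and 39.5 in withdrawal, which is 0.899 times the nearer library. Homer1, a postsynaptic scaffold with an activity-induced short form, was higher, with 10.4, 9.72 and 11.6 RPKM in saline, 12.6, 12.7 and 13.2 in cocaine and 11.7, 12.1 and 11.3 in withdrawal, and turned to -0.06 log2 units after centring within bins of gene length. After that centring none of the 44 genes was set apart. Fos had 3.47, 4.30 and 2.89 RPKM in cocaine, below saline (5.74, 5.19 and 7.46) and overlapping withdrawal (5.67, 2.46 and 4.25). Fosb, a relative of Fos, had cocaine lanes (2.07, 2.55 and 2.06 RPKM) that overlapped saline (2.21, 2.93 and 3.44), and Egr1, a zinc finger factor, had cocaine lanes (28.0, 22.7 and 25.3) that overlapped withdrawal (26.2, 26.1 and 23.7). Bdnf, a neurotrophin, did not reach a mean of 1 RPKM.

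Among ion channels and receptors, members appeared on both sides. Of 51 tested potassium channel genes, 6 were lower (11.8%, against 2.70% of all tested genes) and 1 higher (1.96%, near the 2.26% of all tested genes). The median of the list was 0.09, so that the lower genes do not stand for the list. Kcnj4, the inward rectifier Kir2.3 of the striatum, had 45.9, 47.5 and 39.9 RPKM in saline, 37.2, 33.1 and 37.9 in cocaine and 43.4, 46.2 and 39.5 in withdrawal. Kcnip2, an accessory subunit of A-type channels, had 85.8, 89.4 and 89.5 RPKM in saline, 77.9, 76.6 and 71.3 in cocaine and 90.1, 81.2 and 84.1 in withdrawal. For both, saline and withdrawal overlapped. Kcnn1, a calcium-activated channel, was at 0.732 times the nearer library, Kcna5 at 0.851, Kcnh3 at 0.933 and Kcnk2 at 0.953. The higher gene was Kcnj10, the glial inward rectifier, at 1.04 times. After centring within bins of gene length, 3 of the 6 lower genes and no higher gene kept their place.

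Of 21 tested genes of GABA receptors, synthesis and transport, 2 were higher (9.52%, against 2.26% of all tested genes) and 1 lower (4.76%, against 2.70%). Gabrd, the delta subunit of extrasynaptic receptors, had 51.5, 51.5 and 55.2 RPKM in saline, 40.9, 35.0 and 40.0 in cocaine and 49.8, 52.1 and 47.3 in withdrawal. Gabrb2, a beta subunit of synaptic receptors, had 15, 11.8 and 12.1 RPKM in saline, 18.1, 17.6 and 17.9 in cocaine and 15.9, 16.9 and 16.8 in withdrawal. The saline and withdrawal lanes overlapped for Gabrd, and withdrawal lay between the other libraries for Gabrb2. Both genes kept their place under scaling to the 75th percentile and under length centring. Of 35 tested ionotropic glutamate receptor genes 1 was higher and none lower, a share of 2.86%, near the 2.26% of all tested genes. It was Gria4, an AMPA receptor subunit, with 15.8, 16.4 and 16.1 RPKM in saline, 18.3, 17.7 and 19.8 in cocaine and 14.8, 16.5 and 14.4 in withdrawal. Of 31 sodium and calcium channel genes 4 were higher (12.9%, against 2.26%), namely Scn1a, Cacna2d1, Cacnb4 and Ryr2, at 1.04 to 1.10 times the nearer library. In the same list 2 were lower (6.45%, against 2.70%), Scn4b and Cacnb3. The list medians were 0.29 log2 units for cocaine minus saline and -0.01 for cocaine minus withdrawal. Cocaine lanes of the 31 lay above saline for 23 (74.2%, against 18.3% of all tested genes) and below for 4 (12.9%, against 23.9%). They lay above withdrawal for 5 (16.1%, against 9.42%) and below for 8 (25.8%, against 8.66%). Length centring left no higher gene in that list and turned Cacna2d1 to -0.07 and Scn1a to -0.007 log2 units.

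Some synaptic adhesion genes were found on the higher side, and centring within bins of gene length placed 3 others on the lower side. As a list these genes differed from saline and hardly from withdrawal. Of 68 tested, 9 were higher (13.2%, against 2.26% of all tested genes) and none lower, with a median difference of 0.16. The list median was 0.29 log2 units for cocaine minus saline and 0.03 for cocaine minus withdrawal. Against saline alone 44 had higher cocaine lanes (64.7%, against 18.3% of all tested genes) and 1 had lower ones. Against withdrawal alone 12 were higher (17.6%, against 9.42%) and 9 lower (13.2%, against 8.66%). They included Nlgn1, a postsynaptic neuroligin, the cell adhesion molecules Ncam2, Chl1, Lsamp and Negr1, the cadherins Cdh10 and Pcdh7 and the teneurin Odz1. Pcdh7 had 9.83, 8.52 and 9.61 RPKM in saline, 19.6, 18.6 and 20.6 in cocaine and 17.5, 18 and 16.3 in withdrawal, so that withdrawal lay near cocaine and far from saline. Ncam2 had 3.20, 2.67 and 3.56 RPKM in saline, 6.41, 7.70 and 7.50 in cocaine and 6.10, 6.37 and 6.21 in withdrawal, in the same order. Negr1 had 25, 22.8 and 23.6 RPKM in saline, 28.5, 27.9 and 26.9 in cocaine and 25.3, 26.4 and 24.3 in withdrawal, where saline and withdrawal overlapped. The 9 genes were 1.06 to 1.15 times the nearer library. The list has a median gene model length of 7277 bp, against 3531 bp for all tested genes. After centring within bins of gene length 7 genes were higher and 3 were lower, with Cdh10 (-0.19) among those lost.

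Genes of the mitochondrial respiratory chain and of the cytosolic ribosome had members on the lower side only, but as lists they differed from saline and not from withdrawal. Of 76 tested genes of oxidative phosphorylation, 8 were lower (10.5%, against 2.70% of all tested genes), with a list median of -0.22. Ndufa3, a complex I subunit, had 252, 241 and 286 RPKM in saline, 182, 196 and 182 in cocaine and 241, 219 and 258 in withdrawal, with overlapping saline and withdrawal lanes. Ndufs6, another complex I subunit, had 142, 132 and 127 RPKM in saline, 89.0, 79.3 and 81.7 in cocaine and 96.5, 107 and 95.5 in withdrawal. Of 79 ribosomal protein genes, 6 were lower (7.59%, against 2.70%), with a list median of -0.23. Rps29 had 634, 634 and 656 RPKM in saline, 465, 428 and 454 in cocaine and 518, 500 and 518 in withdrawal. Ribosomal protein genes have many processed copies, so their RPKM is uncertain. Against saline alone the cocaine lanes were lower for 75 and 78 of the genes of these lists (98.7% of each, against 23.9% of all tested genes), with list medians of -0.42 and -0.47 log2 units. Against withdrawal alone they were lower for 8 and 6 genes (10.5% and 7.59%, against 8.66%) and higher for 10 of each list (13.2% and 12.7%, against 9.42%), with list medians of 0.01. The median gene model lengths were 1234 and 1131 bp.

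**Figure D3:**
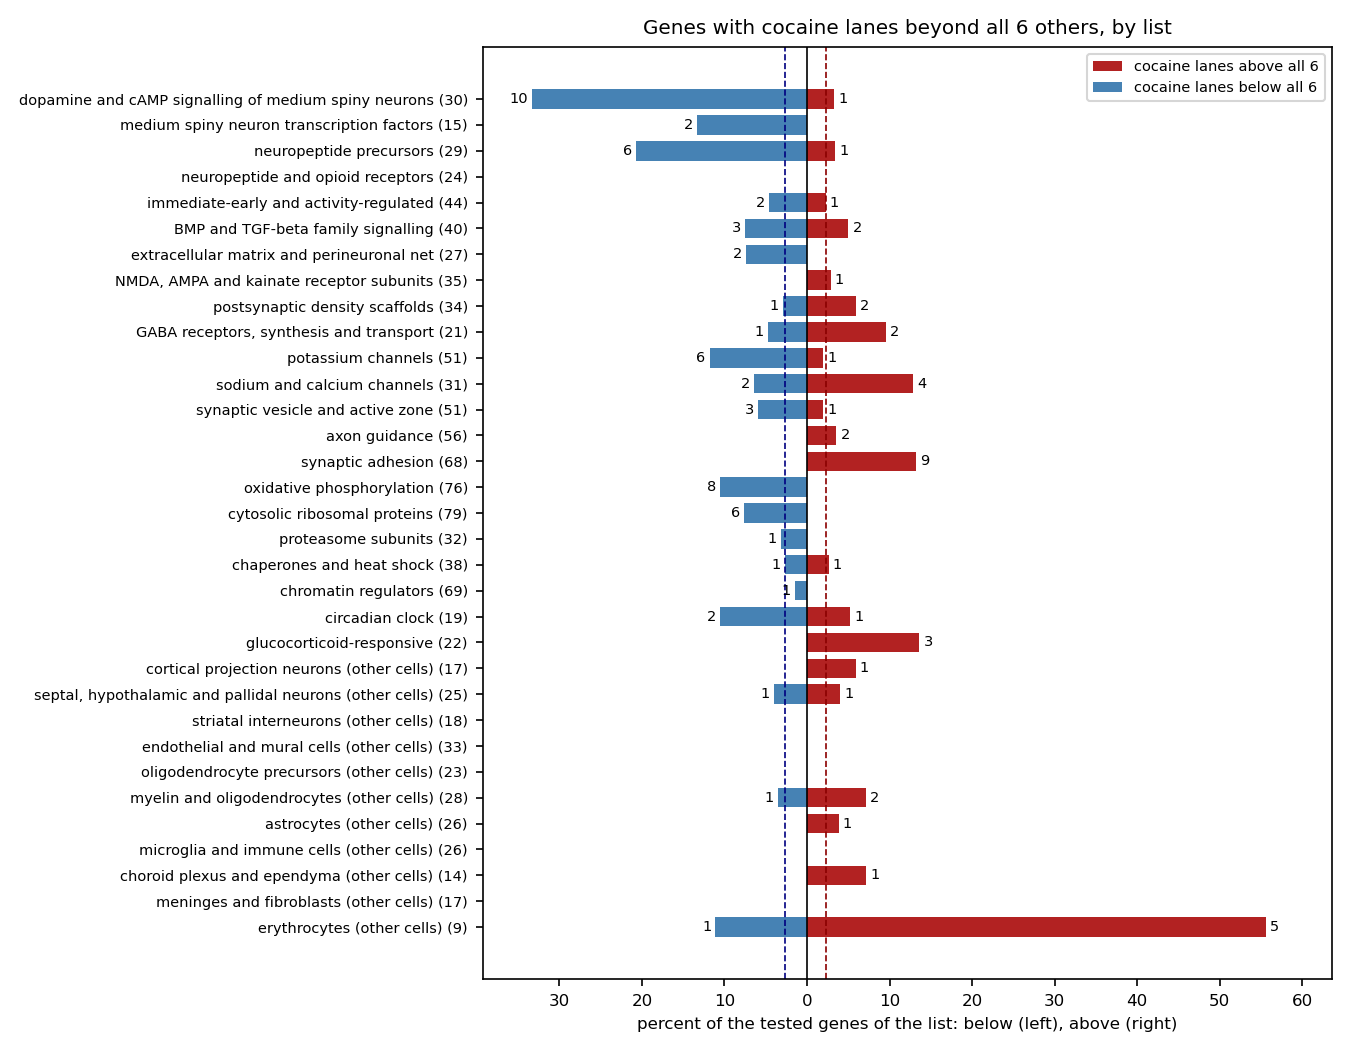
Percent of the tested genes of each of 33 gene lists whose cocaine lanes lay below (blue, to the left) or above (red, to the right) all 6 other lanes, with the number of genes at the bar and the number tested in parentheses. Dashed lines mark the shares over all tested genes, 2.70% and 2.26%. The longest blue bar is that of dopamine and cAMP signalling (10 of 30) and the longest red bar that of erythrocyte genes (5 of 9).

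Gene model length differed between the 2 directions. The median length was 6641 bp for the 317 higher genes, 2616 bp for the 379 lower genes and 3531 bp for all tested genes. Across tested genes, which are not independent replicates, Spearman's rho of length with the log2 difference was 0.464 for cocaine minus saline, -0.01 for cocaine minus withdrawal and 0.422 for withdrawal minus saline. Of the 696 genes, 175 of the higher and 255 of the lower kept their place after centring within bins of gene length, which gave 261 higher and 361 lower genes in all. Adora2a, Drd2, Ppp1r1b, Pde1b, Rgs9, Penk, Cartpt, Gabrb2 and Per2 were among those kept. The part of RNA quality or fragment length in these values was not tested.

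**Figure D4:**
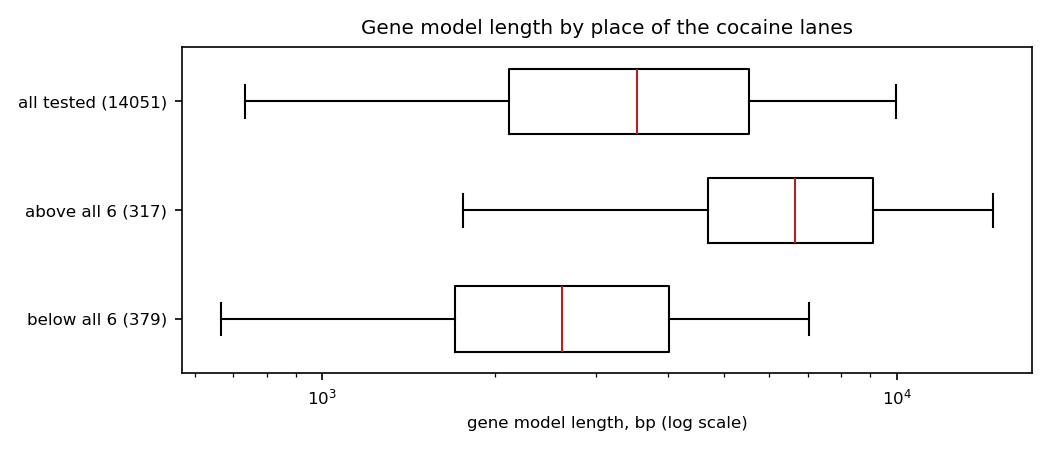
Length of the gene model in bp on a log axis for all tested genes and for the genes with cocaine lanes above or below all 6 others. Boxes span the middle 50% with the median in red, and whiskers reach the 5th and 95th percentiles. The higher genes have a median of 6641 bp and the lower genes of 2616 bp.

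Clock genes and genes that glucocorticoids regulate held further members. Of 19 tested clock genes, 1 was higher (5.26%, against 2.26% of all tested genes) and 2 lower (10.5%, against 2.70%). Per2, a repressor of the molecular clock, had 5.66, 5.21 and 6.12 RPKM in saline, 9.07, 8.28 and 8.97 in cocaine and 6.83, 7.45 and 6.90 in withdrawal, with no overlap between the libraries and cocaine 1.23 times withdrawal. Nr1d1, the clock repressor REV-ERB alpha, had 57.9, 53.6 and 55.7 RPKM in saline, 45.9, 43.3 and 47.2 in cocaine and 55.6, 54.8 and 55.1 in withdrawal, so that saline and withdrawal overlapped. Npas2, a partner of BMAL1, had 9.90, 9.78 and 11.7 RPKM in saline, 9.13, 8.49 and 9.49 in cocaine and 12.1, 11.1 and 11.3 in withdrawal, and lost its place under scaling to the 75th percentile. The hour of tissue harvest is not given in the labels.

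Of 22 tested genes of the glucocorticoid list, 3 were higher (13.6%, against 2.26% of all tested genes) and none lower (against 2.70%), while the list median was 0.00. The list medians were -0.12 log2 units for cocaine minus saline and 0.13 for cocaine minus withdrawal. Cocaine lanes lay below saline for 9 of the 22 (40.9%, against 23.9% of all tested genes) and above for 6 (27.3%, against 18.3%). They lay above withdrawal for 8 (36.4%, against 9.42%) and below for 1 (4.55%, against 8.66%). Plin4, a lipid droplet protein, had 3.72, 3.50 and 3.77 RPKM in saline, 5.58, 4.96 and 7.01 in cocaine and 3.43, 3.82 and 2.98 in withdrawal, or 1.51 times the nearer library. It dropped to 0.47 log2 units, under the limit of 1.5 times, without 1 of its lanes (saline lane 2 and cocaine lane 3 each took it under the limit). Sgk1, a serum- and glucocorticoid-induced kinase, had 18.6, 16.4 and 17.6 RPKM in saline, 21.4, 20.4 and 20.3 in cocaine and 11.0, 13.1 and 9.29 in withdrawal, so that withdrawal was the lowest library. Nr3c1, the glucocorticoid receptor, had 23.3, 20.0 and 20.4 RPKM in saline, 24.0, 24.9 and 24.1 in cocaine and 18.8, 19.8 and 21.0 in withdrawal, and lost its place under length centring.

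On the higher side, 5 genes differed by at least 1.5 times: Ttr, Muc15, 1700120B22Rik, Alas2 and Plin4. Muc15, a membrane mucin named outside the rule for named genes, had 1.04, 1.29 and 1.19 RPKM in saline, 2.55, 3.37 and 2.67 in cocaine and 2.04, 1.27 and 1.05 in withdrawal, and saline and withdrawal overlapped. Ttr, transthyretin, the carrier of thyroid hormone that the choroid plexus secretes, had 2.93, 1.29 and 2.90 RPKM in saline, 5.26, 10.0 and 7.24 in cocaine and 1.33, 0.617 and 0.901 in withdrawal. It was 2.82 times the nearer library, the largest fold among the 317 genes, and its 3 cocaine lanes spread more widely than those of most genes named here, with cocaine lane 2 highest. Of 14 tested genes of choroid plexus and ependyma Ttr was the only member found (7.14% higher, against 2.26% of all tested genes). The summed level of the list was 106 to 113 RPKM in saline, 102 to 111 in cocaine and 91.9 to 96.3 in withdrawal. Folr1 and Kl, which choroid plexus epithelium also expresses, did not pass the filter. Folr1 had 0.349, 0.0685 and 0.0571 RPKM in saline, 1.26, 0.323 and 0.831 in cocaine, and was listed at 0.157, 0 and 0 in withdrawal. Kl had 0.549 to 0.742 RPKM in saline, 0.819 to 0.958 in cocaine and 0.826 to 1.15 in withdrawal. The part of choroid plexus tissue in these values was not tested.

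Of 9 tested erythrocyte genes, 5 were higher (55.6%, against 2.26% of all tested genes) and 1 lower (11.1%, against 2.70%), with a list median of 0.56. The summed level was 560 to 600 RPKM in saline, 663 to 745 in cocaine and 431 to 461 in withdrawal. Hba-a2, an alpha globin, had 143, 158 and 140 RPKM in saline, 205, 174 and 212 in cocaine and 114, 111 and 120 in withdrawal. Hbb-b1, a beta globin, had 112, 109 and 127 RPKM in saline, 150, 155 and 173 in cocaine and 82.3, 90.7 and 84.2 in withdrawal. For both, withdrawal was the lowest library. The near-identical copies Hba-a1 and Hbb-b2 followed the same order, and reads shared between copies make each single value uncertain. Alas2, the erythroid enzyme that starts heme synthesis, had 2.12, 1.55 and 1.71 RPKM in saline, 3.72, 2.40 and 2.92 in cocaine and 1.72, 2.19 and 0.985 in withdrawal. Its 1.52 times the nearer library went under 1.5 times without saline lane 2, saline lane 3, cocaine lane 1 or withdrawal lane 3, the lowest value being 0.46 log2 units. The part of blood left in the punches was not tested.

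**Figure D5:**
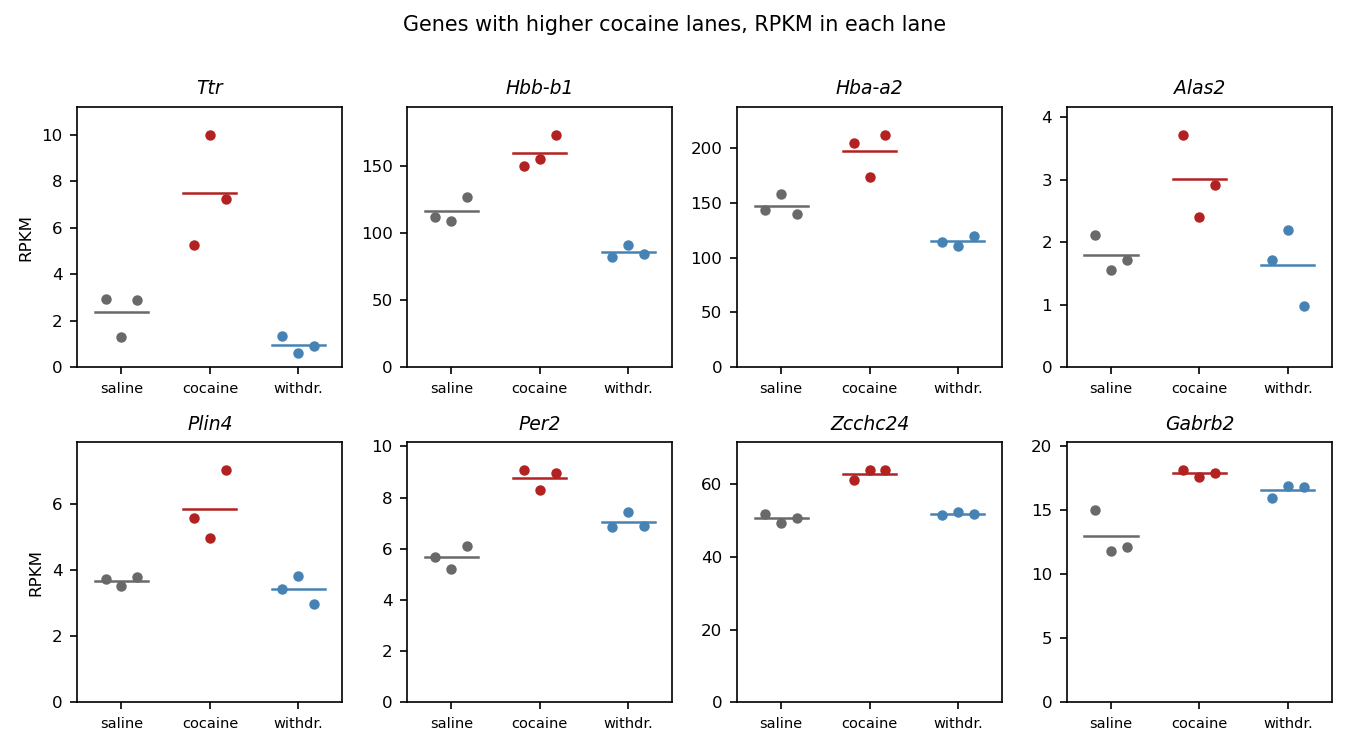
RPKM of 8 genes with higher cocaine lanes, with 1 point for each lane, a line at the mean of the 3 lanes of a library and a vertical axis from 0. All 3 cocaine points lie above the 6 others in each panel. Withdrawal is the lowest library for Hbb-b1 and Hba-a2, and saline for Per2 and Gabrb2.

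Further lists gave 5 or fewer members each, beside shares of 2.26% higher and 2.70% lower over all tested genes. Of 40 tested genes of BMP and TGF-beta signalling, the receptor Tgfbr1 and the mediator Smad5 were higher (5.0%), and the receptor Acvr1, the ligand Tgfb1 and the target Id1 were lower (7.5%). After length centring Smad5 turned to -0.07 log2 units, and only Acvr1 of the 5 kept its place. Id1 had 13, 13.5 and 13.2 RPKM in saline, 9.98, 12.2 and 10.3 in cocaine and 16.2, 14.2 and 13.3 in withdrawal, so that saline and withdrawal overlapped. Of 27 genes of extracellular matrix, the proteoglycans Bcan and Cspg5 were lower (7.41%), at 0.911 and 0.888 times the nearer library, while the list median was 0.14. That median joins 0.28 log2 units for cocaine minus saline and -0.13 for cocaine minus withdrawal. Cocaine lanes of the 27 lay above saline for 19 (70.4%, against 18.3% of all tested genes) and below for 3 (11.1%, against 23.9%). They lay below withdrawal for 12 (44.4%, against 8.66%) and above for 1 (3.7%, against 9.42%). Of 34 genes of the postsynaptic density, Homer1 and Dlgap1 were higher (5.88%) and Camk2b was lower (2.94%), and length centring turned Homer1 and Dlgap1 (-0.25 log2 units) to the other direction. Of 51 genes of synaptic vesicles, the fusion regulators Cplx1 and Cplx2 and the calcium sensor Syt3 were lower (5.88%) and the calcium sensor Syt1 was higher (1.96%). Syt1 lost its place under scaling to the 75th percentile, median centring and length centring, and turned to -0.06 log2 units under the last. Of 56 axon guidance genes, the receptors Unc5d and Robo2 were higher (3.57%), at 1.18 and 1.14 times. The proteasome (Psmc1, lower), chaperones (Dnajb5 lower, Hspa5 higher) and chromatin regulators (Hdac7, lower) had 1 or 2 members among 32, 38 and 69 tested genes, shares near those of all tested genes. These 3 lists were not level. In that order, cocaine lanes were below saline for 81.2%, 55.3% and 14.5% (against 23.9% of all tested genes). They were above saline for 0%, 2.63% and 44.9% (against 18.3%). Cocaine lanes were below withdrawal for 3.12%, 5.26% and 20.3% (against 8.66%). They were above withdrawal for 9.38%, 36.8% and 2.9% (against 9.42%).

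Other cell types gave few members under the rule, beside shares of 2.26% higher and 2.70% lower over all tested genes. Of 28 tested myelin genes 2 were higher (7.14%), Cldn11 (93.6, 96.1 and 89.1 RPKM in saline, 111, 107 and 98.5 in cocaine, 90.5, 81.8 and 87.5 in withdrawal) and Tspan2, and 1 was lower (3.57%), Ppp1r14a. Of 26 astrocyte genes 1 was higher (3.85%), Slc1a3, the glutamate transporter GLAST, with 72.7, 72.0 and 73.7 RPKM in saline, 85.3, 86.1 and 87.0 in cocaine and 76.5, 81.5 and 78.3 in withdrawal. Against saline alone 10 of the 26 had lower cocaine lanes (38.5%, against 23.9% of all tested genes) and 6 higher ones (23.1%, against 18.3%). Against withdrawal alone 10 were higher (38.5%, against 9.42%) and 1 lower (3.85%, against 8.66%). None of 33 endothelial and mural, 26 microglial, 23 oligodendrocyte precursor, 18 interneuron or 17 meningeal genes was found on either side, beside 4.95% of all tested genes. This does not mean that these lists were level. Of the 33 endothelial and mural genes, 16 had cocaine lanes above saline (48.5%, against 18.3%) and none below. Against withdrawal 5 of them were lower (15.2%, against 8.66%) and none higher. Zcchc24, a zinc finger protein outside the lists and named for its values, had 51.8, 49.4 and 50.7 RPKM in saline, 61.0, 63.8 and 63.7 in cocaine and 51.4, 52.4 and 51.7 in withdrawal. Saline and withdrawal overlapped for Zcchc24, and its difference from the nearer library was 1.21 times.

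On the lower side, 19 genes differed by at least 1.5 times, and 6 of them were predicted genes or microRNA models. Fabp7, the fatty acid binding protein of astrocytes and radial glia, had 25.8, 29.9 and 24.9 RPKM in saline, 16.2, 15.5 and 14.2 in cocaine and 27.1, 22.5 and 23.1 in withdrawal. Lmo2, a LIM-domain transcription cofactor, had 22.7, 20.6 and 21.2 RPKM in saline, 12.2, 12.8 and 11.9 in cocaine and 19.8, 18.2 and 19.1 in withdrawal. These 2 genes were the best measured of the 19, at 0.641 and 0.655 times the nearer library, and their lanes lay close together. Without withdrawal lane 1 both went just under the limit, to -0.56 and -0.58 log2 units. Hist1h2ad, a replication-dependent histone gene with near-identical copies, had 1.74, 4.95 and 7.11 RPKM in saline, 1.32, 1.43 and 1.17 in cocaine and 2.84, 2.90 and 5.77 in withdrawal. Scarna6, a small Cajal body RNA in a model of 265 bp, was listed at 0 in cocaine lane 1, with 2.05 and 1.69 RPKM in the others, against 3.31 to 4.61 in saline and 2.72 to 7.96 in withdrawal.

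The remaining genes of the 19 rested on single lanes or low levels. Mrpl34, a mitochondrial ribosomal protein, had 16.2, 8.43 and 13 RPKM in cocaine, against 17.5 to 23.6 in saline and 17.5 to 20.1 in withdrawal, and went to -0.38 log2 units without cocaine lane 2. Aldh3b1, an aldehyde dehydrogenase, went to -0.57 without cocaine lane 2, and Scrn2 to -0.26 without cocaine lane 3. Nudt14, a UDP-glucose pyrophosphatase, went to -0.44 at the nearest to 0, with cocaine lane 1 or withdrawal lane 1 left out. Ninj2, Ido1, Trib3 and Slc22a12 stayed under 3.5 RPKM in all 9 lanes. Gm12949 and Gm13965 are predicted genes.

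The 4 microRNA gene models among the 19 are hairpin loci in a library of poly(A) RNA of about 200 bp inserts, so their reads do not measure mature microRNAs. Mir24-1 had 2.12, 2.69 and 3.03 RPKM in saline, 0.200, 2.00 and 0.133 in cocaine and 4.30, 8.51 and 6.34 in withdrawal. Mir3074-1 had 2.62, 2.55 and 3.46 RPKM in saline, 0.681, 1.77 and 0.747 in cocaine and 4.41, 7.67 and 5.95 in withdrawal. Both had their highest levels in withdrawal and a cocaine lane 2 above the other cocaine lanes. The 2 models are one locus. In RefSeq's GRCm38.p6 annotation the 68-base Mir24-1 hairpin (chr13:63301208-63301275, plus strand) lies whole within the 85-base Mir3074-1 hairpin (chr13:63301199-63301283, minus strand). Whether the authors' counting used strand is not given in the sources used here, so the reads of the 2 models cannot be told apart. The mature sequences are shown, 5′ to 3′ with the seed (bases 2 to 8) in capitals, because they show that the products of the 2 strands have different seeds.
mmu-miR-24-1-5p: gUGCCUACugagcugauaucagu
mmu-miR-24-3p: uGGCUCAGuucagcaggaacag
mmu-miR-3074-5p: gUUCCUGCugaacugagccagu
The other models were Mir3060 (2.27, 1.79 and 4.10 RPKM in saline, 0.451, 0 and 1.60 in cocaine, 5.34, 2.36 and 5.87 in withdrawal) and Mir431 (9.80, 10.0 and 5.89 in saline, 4.08, 2.99 and 4.42 in cocaine, 6.53, 7.39 and 6.29 in withdrawal).

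The rule uses all 6 saline and withdrawal lanes and passes over genes whose cocaine level lies between them, so it favours genes whose saline and withdrawal levels are close. The distance between these libraries is therefore given as a description only. The saline and withdrawal lanes overlapped for 411 of the 696 genes (59.1%), against 55.8% of all tested genes, where 44.2% did not overlap. By library means, cocaine was nearer to withdrawal than to saline for 520 of the 696 genes (74.7%), against 67.3% of all tested genes. Adora2a, Pde1b and Zcchc24 are members whose withdrawal level met the saline level, Ppp1r1b, Cartpt and Per2 members whose withdrawal level lay between the other libraries, and Sgk1, Rgs9 and the globins members whose withdrawal level lay beyond saline. As a share of each comparison, the 317 higher genes are 12.3% of the 2568 genes with cocaine lanes above saline (18.3% of those tested) and 24.0% of the 1323 above withdrawal (9.42%). The 379 lower genes are 11.3% of the 3354 below saline (23.9%) and 31.1% of the 1217 below withdrawal (8.66%).

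Several genes with large differences between cocaine and saline are not members, because withdrawal overlapped the cocaine lanes or lay beyond them. Bmpr2, a BMP receptor, had 4.10, 3.30 and 4.06 RPKM in saline, 14.1, 15 and 14.8 in cocaine and 14.3, 15.4 and 15.8 in withdrawal. The withdrawal lanes overlapped cocaine for Bmpr2 and the NMDA receptor gene Grin2a, and all lay above cocaine for the glycoprotein gene Tnr and the potassium channel gene Kcnq3. Tnr, Grin2a and Kcnq3 had log2 differences of 1.73, 1.69 and 1.65 from saline and of -0.15, -0.13 and -0.33 from withdrawal. In contrast, Peg10, an imprinted retrotransposon-derived gene, was a member by a narrow gap, with 64.0, 62.6 and 63.8 RPKM in saline, 102, 105 and 105 in cocaine and 99.1, 95.6 and 97.8 in withdrawal.

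Gpr12 and Tyro3 are members outside the lists that are named for their values. Gpr12, an orphan receptor that raises cAMP, had 9.61, 10.4 and 11.6 RPKM in saline, 8.44, 8.07 and 8.40 in cocaine and 13.5, 12.1 and 13.4 in withdrawal. Tyro3, a receptor tyrosine kinase, had 93.9, 100 and 100 RPKM in saline, 85.0, 83.1 and 90.5 in cocaine and 110, 105 and 108 in withdrawal. For both, withdrawal was the highest library. Tyro3 lost its place under scaling to the 75th percentile.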

How the data were processed

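Values are RPKM made by the authors for 9 lanes, deposited as 1 table with a total for each lane, per the file headers; Bowtie 0.12.7 and mm9 are listed per the submitters' processing notes, and the role of each, the counter, annotation and strand use are not given in the sources used here. Read numbers worked back from the RPKM sum to 126 to 131% of the lane totals, so no read numbers are given. Gene model lengths were worked back from the RPKM for all 21423 genes (median ratio to the longest reference transcript 1.06). Groups came from the sample titles. The members, gene lists and rules were chosen with earlier results of these data known, so no list is tested. Named genes were the 12 largest differences in each direction past 1.5 times with at least 3 RPKM (predicted, small RNA and short models only as counts), the 3 largest members of each list and a fixed set; Scarna6 passed because its prefix was not on that list of small RNAs. Some members counted in the lists are not reported here by name. Other genes named were chosen after their values were seen. The means used log2(RPKM + 0.5). limma 3.58.1 (R 4.3.3, trend and robust fit) was an alternative. Alternatives changed the pseudocount, filter, scaling, size limit and lanes, and a replicate block. Scripts ran in Python 3.11.15 and were tested on simulated data. List counts under alternatives were added after seeing the data.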

Additional observations from a re-analysis of the deposited data

How the results depend on the processing

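The counts in order are higher genes, lower genes, and each of them with at least 1.5 times the nearer library, at 317, 379, 5 and 19 as reported. Leaving out 1 lane gave 366 to 635, 427 to 781, 7 to 25 and 22 to 52. Fewer lanes make the rule easier to meet. Scaling to the 75th percentile gave 410 and 295 (58.2% higher, against 45.5% as reported). The replicate block gave 731, 850 and 12 higher genes past 1.5 times. Lane numbers do not pair the lanes, since deviations of same-numbered lanes correlated at -0.0512 to 0.0764 over 9 pairs. Over the technical lanes, which makes it no test of treatment, limma without a replicate block called 6, 16, 1 and 3, and with it 5, 13, 1 and 5. The counts past 1.5 times moved most. They were 29 lower at a pseudocount of 0.1, 3 higher at a pseudocount of 1, 0 and 5 at a minimum of 5 RPKM, 21 and 32 with no filter, 10 and 11 after length centring, and 28 and 52 on the authors' composite values without the lane condition. With the limit at 25% they were 38 and 89, and at 2 times 1 and 5. Under length centring Homer1 turned to -0.06, Dlgap1 to -0.25 and Cacna2d1 to -0.066 log2 units; the cause was not tested. Of the values of genes named by rule under alternatives, 1415 moved by less than the lane spread, 28 by more and these 3 turned. Genes named outside that set turned too, among them Cdh10, Smad5, Syt1 and Scn1a under length centring (-0.189, -0.072, -0.059 and -0.007). Ptpn5, a lower gene, turned to 0.026 under scaling to the 75th percentile. The lists' counts of dopamine and cAMP genes stayed at 10 to 12 lower and 1 higher without any 1 lane. With 1 library for each group, no count carries an error for mice or pools, and weakly expressed genes such as Alas2, Pomc and Scarna6 rest on few reads.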

Other observations

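Of the 696 genes, 595 are in none of the gene lists, and a few were named here after their values were seen. Hes6, a brake on HES repressors, had 24.8, 21.7 and 27.0 RPKM in saline, 11.9, 11.8 and 11.8 in cocaine and 15.7, 15.1 and 21.3 in withdrawal. Its cocaine lanes were nearly equal, and withdrawal lay between the other libraries. Txnip, a thioredoxin-binding protein that glucose and glucocorticoids raise, had 16.3, 17.5 and 16.0 RPKM in saline, 23.7, 18.4 and 21.9 in cocaine and 15, 16.9 and 11.6 in withdrawal, with overlapping saline and withdrawal lanes. Kif5c, a neuronal kinesin heavy chain, had 123, 121 and 126 RPKM in saline, 149, 151 and 153 in cocaine and 141, 147 and 137 in withdrawal. Actb, beta-actin, was lower, with 775, 790 and 793 RPKM in saline, 671, 670 and 674 in cocaine and 677, 714 and 729 in withdrawal, and lost its place under scaling to the 75th percentile.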
